A study of Mus musculus with 20 samples.

Results

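The genes described here are 10 transcripts that mark the muscular and supporting cells of blood vessel walls, Acta2, Tagln, Myh11, Cnn1, Myl9, Mylk, Rgs5, Pdgfrb, Notch3 and Cspg4. They were picked by name, as smooth muscle contractile genes and pericyte markers, from the 23420 genes of the count table, and all 10 were among the 13590 genes with enough reads to be tested. The hearts came from wild type C57BL/6 male mice aged 9 weeks. Of these, 10 (control) were given a control diet, and 10 (IDA, for iron-deficiency anemia) an iron-deficient diet, in both cases for 6 weeks from the age of 3 weeks. The labels disagree on the iron content of the deficient diet, which one field puts below and another above 2 ppm. RNA was taken from pulverized frozen tissue, so every value is an average over cardiomyocytes, fibroblasts, endothelium, vessel walls and blood, and fewer cells of a type cannot be told apart from less RNA per cell. The comparison of the diets asks how severe dietary iron deficiency altered the cardiac transcriptome, here in its vessel wall genes.

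Arteries and arterioles are wrapped in smooth muscle cells, whose contraction sets vessel calibre and so the flow of blood to the myocardium. In these cells calcium activates myosin light chain kinase (Mylk), which phosphorylates the regulatory light chain (Myl9) of smooth muscle myosin (heavy chain Myh11), and the myosin then pulls on filaments of smooth muscle alpha-actin (Acta2) that also carry calponin (Cnn1) and transgelin (Tagln). Capillaries are instead covered by pericytes, which are recruited by platelet-derived growth factor acting on the receptor Pdgfrb and are marked by Rgs5, a brake on G protein signaling, and by the surface proteoglycan NG2 (Cspg4). Notch3, a receptor for ligands on neighboring endothelial cells, is carried by both kinds of mural cell. Genes of the contractile apparatus are classically switched on by serum response factor and its partner myocardin, which act through a sequence element called the CArG box.

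Upstream sequence is printed for the genes whose call was the same with and without a correction for gene length. These are Acta2 and Myl9, called higher in IDA hearts, and Rgs5, called lower. Myl9 was no longer called once GC content was corrected as well. The sequences are from RefSeq (GRCm38.p6) and give the 200 bases before each annotated start, from 5′ to 3′ on the strand of the gene, with capitals on every stretch that matches the CArG box with at most 1 mismatch.
Acta2 (chr19:34255374-34255573, minus strand): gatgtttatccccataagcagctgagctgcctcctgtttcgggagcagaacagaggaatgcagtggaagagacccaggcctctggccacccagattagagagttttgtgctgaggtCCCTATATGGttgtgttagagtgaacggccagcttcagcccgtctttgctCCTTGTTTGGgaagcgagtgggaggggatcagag
Myl9 (chr2:156775264-156775463, plus strand): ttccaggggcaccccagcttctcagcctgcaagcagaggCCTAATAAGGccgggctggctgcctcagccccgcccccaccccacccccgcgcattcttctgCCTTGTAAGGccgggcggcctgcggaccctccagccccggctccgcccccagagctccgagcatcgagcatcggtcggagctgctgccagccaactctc
Rgs5 (chr1:169655301-169655500, plus strand): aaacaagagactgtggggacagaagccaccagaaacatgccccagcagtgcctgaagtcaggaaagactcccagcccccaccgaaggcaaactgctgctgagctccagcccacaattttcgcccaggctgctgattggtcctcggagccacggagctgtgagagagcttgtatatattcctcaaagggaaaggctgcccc
RefSeq entries were at hand for 7 of the 10 genes, without Tagln, Myh11 and Pdgfrb. Both strands of a window from 250 bases before to 50 bases after the start were searched. An exact CArG box stood in 1.63% of the 32851 promoters of the table and in 1 of the 7 genes, Myl9, whose match CCTAATAAGG begins at position -161 from the start. With 1 mismatch allowed, 21.1% of all promoters held a match, as did Acta2, at positions -84 (CCCTATATGG) and -34 (CCTTGTTTGG), Myl9, which had a further match at position -99 (CCTTGTAAGG), and Cspg4, at the overlapping positions -238 and -237. The TATA box letters TATAAA were in 13.6% of promoters and in 0 of the 7. The letters TGGGAA, the core bound by the Notch effector Rbpj, were in 25.6% of promoters and in 1 of the 7, Acta2, where they overlap the CArG-like match at position -34. Cnn1, Mylk, Rgs5 and Notch3 held no CArG match, exact or with 1 mismatch. These matches describe the letters in a window, no binding was measured, and a link between matches and the direction of change was not tested.

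The libraries held 6797180 to 8960688 counted read pairs in control and 6682177 to 7833916 in IDA mice. Each of the 10 genes was well covered, from 80 read pairs (Cnn1, control mouse 1) to 2323 (Pdgfrb, control mouse 8). Levels are given as CPM, counts normalized to library size after scaling by the trimmed mean of M-values. A gene was called different when edgeR and DESeq2 both gave it p below 0.01, the criterion of the study, and the adjusted p-values printed are edgeR's, from its quasi-likelihood test, after the Benjamini-Hochberg procedure over all 13590 genes. The fold changes of this series run with gene length: across all tested genes, short transcripts lie above and long ones below the median log2 fold change of 0.02. Each fold change is therefore given once as fitted and once after each mouse's trend on exonic length was removed (length-corrected). Where a further correction on transcript GC content (length- and GC-corrected) changes a call, its value is given as well. The length trend moved the 10 genes by between -0.52 (Cspg4, 8050 bp) and 0.27 (Myl9, 1083 bp) on the log2 scale, against fold changes as fitted of -0.67 to 0.51.

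**Figure D1:**
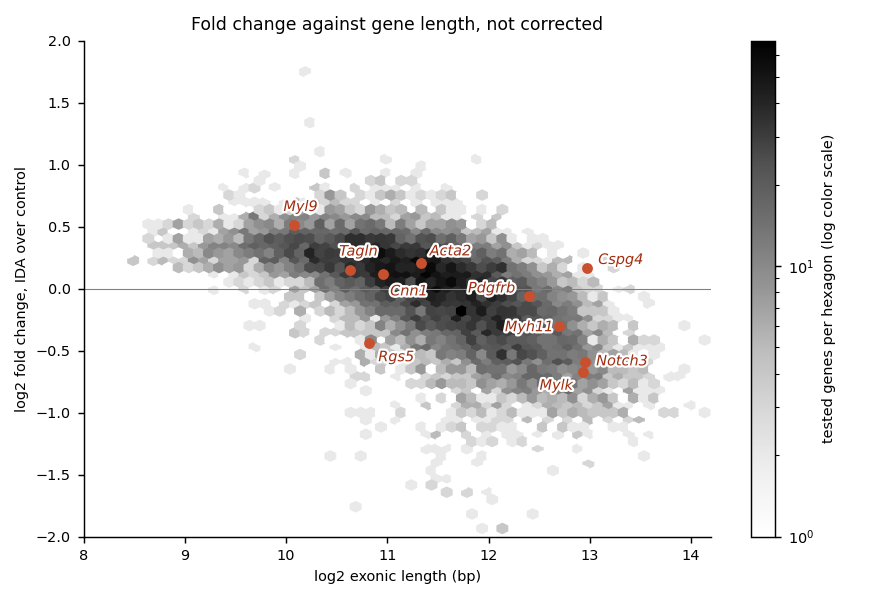
Log2 fold change of IDA over control (vertical axis, as fitted) against log2 exonic length in bp (horizontal axis), with the tested genes binned in grey hexagons whose shade counts genes on a log scale and the 10 vessel wall genes as red points. The grey band slopes down from short to long genes; Rgs5 lies 0.59 below and Cspg4 0.69 above the trend at their own length, and Tagln (-0.03) and Notch3 (-0.08) lie closest to it after Cnn1 (0.00). The 58 genes outside the plotted range are not drawn.

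As fitted, 2 of the 10 genes were higher in IDA hearts (Acta2 and Myl9) and 4 were lower (Myh11, Mylk, Rgs5 and Notch3), where 30.6% of all tested genes were called higher and 29.2% lower. After length correction 4 were higher (Acta2, Myl9, Pdgfrb and Cspg4) and 1 was lower (Rgs5), against 27.0% of all genes higher and 20.3% lower. The members' shares lay near those of all genes, and the differences described here lie between the members. Acta2, Myl9 and Rgs5 had the same call in both fits. The calls of Myh11, Mylk and Notch3 were lost with the length correction, and calls of Pdgfrb and Cspg4 were gained. With length and GC content both corrected, 3 of the 10 genes were higher (Acta2, Pdgfrb and Cspg4) and 3 lower (Mylk, Rgs5 and Notch3). That fit covered the 12772 tested genes with a GC value, of which 2903 were called higher and 2178 lower.

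**Figure D2:**
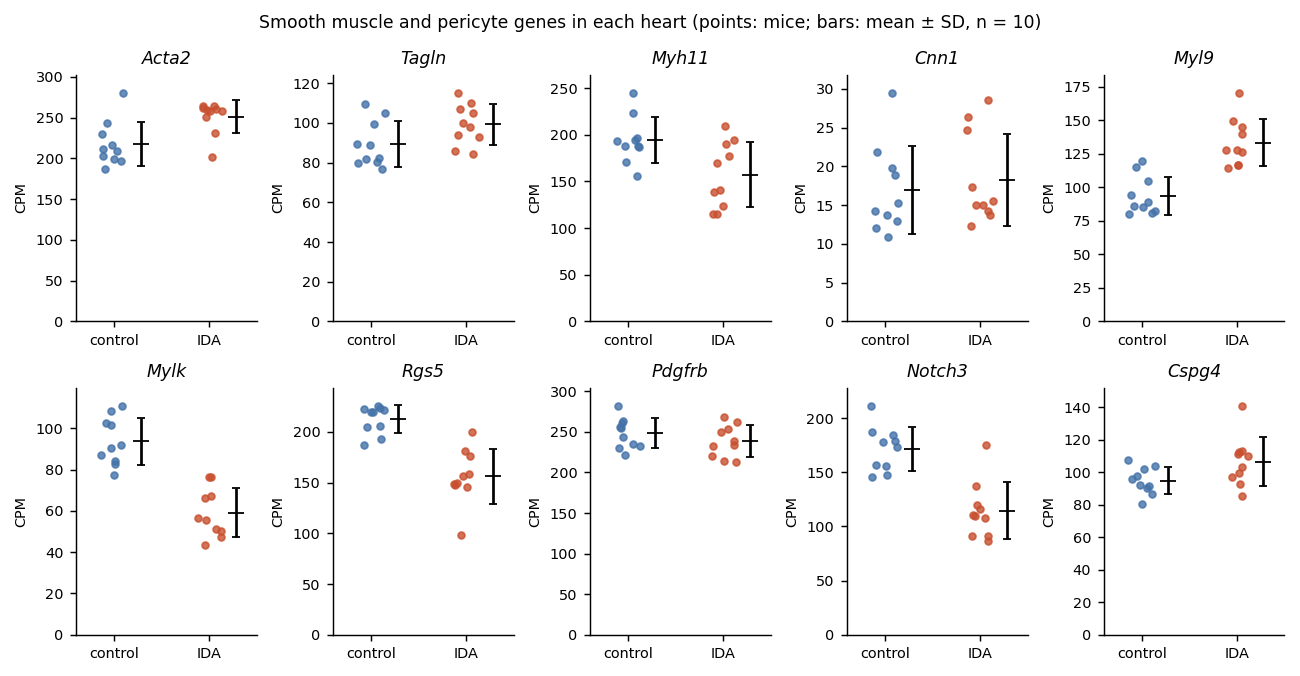
CPM of each gene in every heart (vertical axes, starting at 0), with control mice in blue, IDA mice in red and black bars for the mean ± SD of 10 mice. Mylk is the gene whose groups do not overlap; 9 of 10 IDA mice lie below all control mice for Rgs5 and for Notch3, and 7 lie above all control mice for Myl9.

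Acta2 encodes smooth muscle alpha-actin, the thin filament protein by which smooth muscle is most often recognized. In mm10 the gene lies on the minus strand at chr19:34240336-34255373 and has 9 exons with 2572 bp of exonic sequence. Control hearts had 186.9 to 280.5 CPM (median 210.0) and IDA hearts 202.3 to 264.9 CPM (median 258.9). The IDA mice were tightly grouped at the upper end, with 9 of 10 above the control mean, but none was above the highest control mouse, mouse 3. The means were 217.6 ± 27.45 and 251.3 ± 19.87 CPM (SD, n = 10 each), a log2 fold change of 0.21 (SE 0.06, edgeR adjusted p = 0.00567). The length-corrected value was 0.19 (SE 0.06, edgeR adjusted p = 0.0152), which was still called. The call was lost in 35 of 100 fits that each left out 1 mouse of each diet, most often when control mouse 7 or 8 was left out (8 of 10 fits each), and the fold change lay between 0.16 and 0.29.

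The library numbers in the table fall into 2 runs, a lower one with 5 control and 7 IDA mice and a higher one with 5 control and 3 IDA mice. The log2 fold change of Acta2 was 0.31 in the lower run (edgeR adjusted p = 0.00124) and 0.11 in the higher (edgeR adjusted p = 0.321); the difference between the runs was not tested. With the logarithm of library size as a covariate the value was 0.09 and was not called (edgeR adjusted p = 0.214). Acta2 is a member of a family of near-identical actins, and reads shared among them could be split or dropped in counting. As fitted, the heart's own actins, Actc1 (log2 fold change 0.08, edgeR adjusted p = 0.174) and Acta1 (0.11, edgeR adjusted p = 0.198), were not called, nor was the smooth muscle gamma-actin Actg2 (0.55, edgeR adjusted p = 0.0332), which averaged 4.398 CPM in control and 6.34 CPM in IDA hearts. Length- and GC-corrected, Actc1 (-0.20, edgeR adjusted p = 0.00528) and Acta1 (-0.27, edgeR adjusted p = 0.00359) were called lower, and Acta2 (0.21, edgeR adjusted p = 0.009) higher. Actc1 kept 2490 to 2575 read pairs in every mouse whatever the library depth. Its CPM therefore followed library size, and its fold changes cannot be read as a change in expression.

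Tagln encodes transgelin, also known as SM22, which binds actin filaments. It lies on the minus strand at chr9:45929628-45936058 with 5 exons and 1586 bp, of which 95 bp are shared with exons of Pcsk7 on the opposite strand; strand was not used in the counting, so reads there cannot be assigned to either gene. Control hearts had 77.07 to 109.8 CPM (median 85.76) and IDA hearts 84.47 to 115.2 CPM (median 98.86). The groups overlapped widely, although 8 of 10 IDA mice were above the control mean. The means of 89.4 ± 11.55 and 99.26 ± 10.21 CPM (SD, n = 10 each) differed by 0.15 on the log2 scale (SE 0.07, edgeR adjusted p = 0.0569) and were not called. The length-corrected value was -0.03 (SE 0.07, edgeR adjusted p = 0.69). Of its relatives, Tagln2, found in many cell types, was higher as fitted (0.37) and length-corrected (0.14, edgeR adjusted p = 0.00208) but not called length- and GC-corrected (-0.01), and the neuronal Tagln3, at 1.496 CPM in control hearts, was not called.

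Myh11 encodes the myosin heavy chain that is restricted to smooth muscle. It spans chr16:14194527-14291408 on the minus strand, with 42 exons and 6632 bp. Control hearts had 156.2 to 245.0 CPM (median 190.7) and IDA hearts 115.2 to 209.1 CPM (median 155.4). The IDA mice were the more spread, with 5 below every control mouse and 9 below the control mean. The means were 194.3 ± 24.89 and 157.4 ± 34.86 CPM (SD, n = 10 each), and the log2 fold change was -0.30 (SE 0.11, edgeR adjusted p = 0.0139). Its sign was the opposite after length correction, where the value of 0.11 was not called (SE 0.10, edgeR adjusted p = 0.343). The uncorrected call was itself lost in 56 of the 100 fits without 1 mouse of each diet, in 9 of 10 when IDA mouse 1, 2, 4, 8 or 10 was left out, with values of -0.39 to -0.22, and also with upper-quartile scaling (-0.28), total library size (-0.25) or library size as a covariate (-0.33, edgeR adjusted p = 0.0333). It was -0.20 in the lower run of library numbers and not called (edgeR adjusted p = 0.159), and -0.53 in the higher run, where it was (edgeR adjusted p = 0.0266); the difference between the runs was not tested. The nonmuscle heavy chains gave the same kind of dependence on length: Myh10 was lower as fitted (-0.55) but not length-corrected (-0.05), and Myh9 was not called as fitted (-0.06) but higher length-corrected (0.42, edgeR adjusted p = 4.37e-06).

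Cnn1 encodes calponin, an actin-binding inhibitor of the myosin motor that is confined to mature smooth muscle. It lies on the plus strand at chr9:22099253-22109221 with 7 exons and 1987 bp. It was the least abundant of the 10 genes, at 10.92 to 29.48 CPM in control hearts (median 14.81) and 12.34 to 28.58 CPM in IDA hearts (median 15.3). The ranges nearly coincided. The means of 16.93 ± 5.679 and 18.28 ± 5.915 CPM (SD, n = 10 each) gave a log2 fold change of 0.12 (SE 0.18, edgeR adjusted p = 0.583), and the length-corrected value was 0.00 (SE 0.18, edgeR adjusted p = 0.985). It was also the most variable of the 10 within a diet, with an SD of 0.43 in control and 0.45 in IDA mice in length-corrected log2 CPM, where Pdgfrb had 0.10 and 0.13. Its broadly expressed relative Cnn2 was higher in every IDA mouse than in any control mouse, at 153.0 against 106.1 CPM (log2 fold change 0.53, edgeR adjusted p = 2.34e-07, length-corrected 0.37). Cnn3, the acidic calponin, was not called as fitted (0.00, edgeR adjusted p = 0.96) and was lower length-corrected (-0.12, edgeR adjusted p = 0.0149). Length- and GC-corrected it was not called (-0.09, edgeR adjusted p = 0.0468).

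Myl9 encodes the regulatory light chain whose phosphorylation starts smooth muscle contraction. It lies on the plus strand at chr2:156775464-156781657 with 4 exons and 1083 bp, the shortest transcript of the 10. Control hearts had 79.93 to 119.5 CPM (median 87.48) and IDA hearts 114.4 to 170.6 CPM (median 127.7). The control mean was exceeded by all 10 IDA mice and the highest control mouse by 7. The means rose from 93.66 ± 14.43 to 133.5 ± 17.85 CPM (SD, n = 10 each), a log2 fold change of 0.51 (SE 0.08, edgeR adjusted p = 1.19e-05). Length correction reduced it to 0.24 (SE 0.08, edgeR adjusted p = 0.00993), and a correction on both length and GC content (56.6% GC in its transcript, 50.3% in the median tested gene) to 0.07, which was not called (edgeR adjusted p = 0.497). The call as fitted held in all 100 fits without 1 mouse of each diet. Its 2 broadly expressed relatives, Myl12a (0.16) and Myl12b (0.30), were also higher as fitted, and both had a length-corrected log2 fold change of 0.00.

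Mylk encodes the calcium- and calmodulin-dependent kinase that phosphorylates that light chain. It spans chr16:34784950-35002434 on the plus strand with 32 exons and 7809 bp, of which 333 bp are shared with E130310I04Rik on the opposite strand. Control hearts had 77.21 to 110.7 CPM (median 91.15) and IDA hearts 43.49 to 76.35 CPM (median 55.93). Mylk was the only one of the 10 genes whose groups did not overlap in CPM. The groups of the relatives Cnn2, Tagln2, Myl12b and Myh10 did not overlap either. The share of all tested genes without overlap was not counted, so it cannot be said how unusual a lack of overlap is. The same holds for Ppp1r12a, Ndufa4l2, Cox4i2, Higd1b, Srf and Prkg1, described below. The means fell from 93.68 ± 11.46 to 58.99 ± 11.83 CPM (SD, n = 10 each), a log2 fold change of -0.67 (SE 0.10, edgeR adjusted p = 3.29e-06). Length correction took most of this away, leaving -0.17 (SE 0.06, edgeR adjusted p = 0.0257), which was not called, and the length-corrected ranges of the diets overlapped. With GC content added to the correction (53.6% GC) Mylk was again called lower, at -0.27 (edgeR adjusted p = 0.00144). The trend at its length alone amounted to -0.50.

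**Figure D3:**
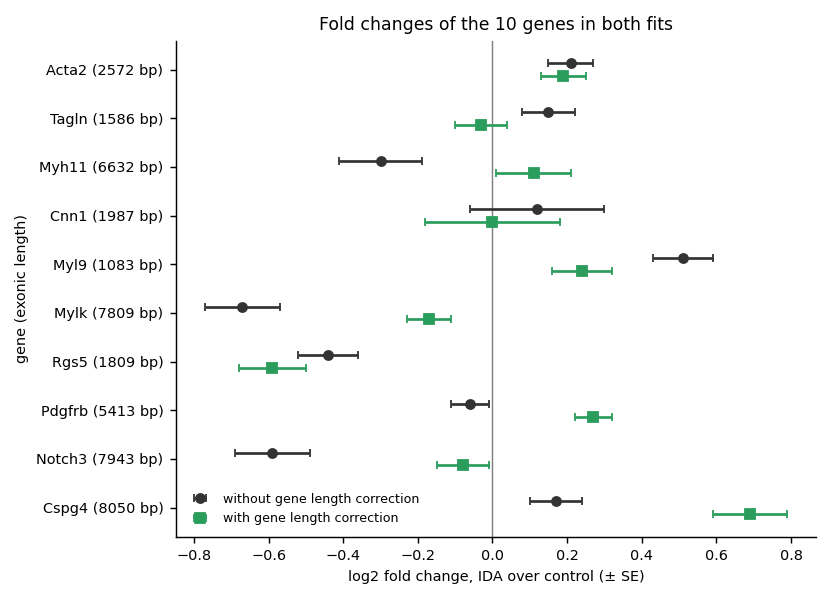
Log2 fold change of IDA over control (horizontal axis) for each gene, as fitted (black circles) and after correction for gene length (green squares), with bars of ± 1 SE from edgeR and the exonic length beside each name. Acta2, Myl9 and Rgs5 stay on their side of 0 in both fits, Myh11 and Pdgfrb cross it, and Cspg4 moves from 0.17 to 0.69.

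Rgs5 encodes a regulator of G protein signaling that shortens the response of mural cells to vasoconstrictors and is the transcript most typical of pericytes. It lies on the plus strand at chr1:169655501-169693526, with 5 exons and 1809 bp. Control hearts had 187.6 to 225.5 CPM (median 219.8) and IDA hearts 97.92 to 199.7 CPM (median 153.1). All 10 IDA mice were below the control mean and 9 were below every control mouse. The means fell from 212.5 ± 13.83 to 156.3 ± 27.1 CPM (SD, n = 10 each), a log2 fold change of -0.44 (SE 0.08, edgeR adjusted p = 4.99e-05). Rgs5 is short, and as short genes lay above the median in this series, length correction enlarged its difference to -0.59 (SE 0.09, edgeR adjusted p = 1.4e-05). It was called lower in all 100 fits without 1 mouse of each diet (-0.51 to -0.37), in the lower run of library numbers (-0.39, edgeR adjusted p = 0.000932) and in the higher run (-0.58, edgeR adjusted p = 0.0113), and with length and GC content both corrected (-0.38, edgeR adjusted p = 0.000305). IDA mouse 1 had the lowest level, and without it the log2 fold change was -0.42 to -0.37.

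Pdgfrb encodes the receptor for platelet-derived growth factor B, on which recruitment of pericytes depends. It spans chr18:61045150-61085067 on the plus strand, with 23 exons and 5413 bp. Control hearts had 222.0 to 281.8 CPM (median 249.5) and IDA hearts 213.0 to 267.9 CPM. The groups overlapped almost fully. The means of 248.4 ± 18.46 and 238.6 ± 19.39 CPM (SD, n = 10 each) gave a log2 fold change of -0.06 (SE 0.05, edgeR adjusted p = 0.302). Length correction turned this into 0.27 (SE 0.05, edgeR adjusted p = 8.51e-05), with each of the 10 IDA mice exceeding the mean of the controls. With GC content added it was 0.14 and still called (edgeR adjusted p = 0.00905), whereas with the run of library numbers as a covariate and no length correction Pdgfrb was called lower (-0.10, edgeR adjusted p = 0.014). The ranges in length-corrected log2 CPM were 7.60 to 7.95 in control and 7.84 to 8.26 in IDA mice.

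Notch3 encodes the Notch receptor of arterial smooth muscle and pericytes, which binds ligands such as Jag1 on endothelial cells. It spans chr17:32120893-32166852 on the minus strand, with 33 exons and 7943 bp. Control hearts had 145.3 to 211.0 CPM (median 175.6) and IDA hearts 86.08 to 175.1 CPM (median 109.7). All but 1 of the IDA mice, mouse 5, were below every control mouse. The means fell from 171.6 ± 20.55 to 114.3 ± 26.28 CPM (SD, n = 10 each), a log2 fold change of -0.59 (SE 0.10, edgeR adjusted p = 2.83e-05). The length-corrected value was -0.08 (SE 0.07, edgeR adjusted p = 0.309) and was not called. With GC content added to the correction (its transcript is 59.6% GC) the value was -0.31 and was called lower (edgeR adjusted p = 0.00188), so the call of Notch3 depended on which properties of the transcript were allowed for.

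Cspg4 encodes the proteoglycan NG2, the surface antigen by which pericytes are most often stained. It spans chr9:56865104-56899870 on the plus strand, with 10 exons and 8050 bp, the longest transcript of the 10. Control hearts had 80.36 to 107.8 CPM (median 94.1) and IDA hearts 85.38 to 140.8 CPM (median 106.7). The IDA mice reached higher, with 5 above every control mouse, but were also the more spread. The means were 94.92 ± 8.327 and 106.7 ± 15.15 CPM (SD, n = 10 each), and the log2 fold change of 0.17 was not called (SE 0.07, edgeR adjusted p = 0.0375). It was called without length correction by edgeR alone or limma-voom at an adjusted p below 0.05, and with library size as a covariate (0.28, edgeR adjusted p = 0.00398). Genes as long as Cspg4 were as a rule lower in IDA hearts, and the length-corrected log2 fold change was 0.69 (SE 0.10, edgeR adjusted p = 4.12e-06), the largest of the 10 in that fit. In length-corrected log2 CPM each of the 10 IDA mice (6.59 to 7.50) exceeded the mean of the controls, and the control mice spanned 6.03 to 6.66. The corrected value was 0.67 in the lower run of library numbers (edgeR adjusted p = 0.000556), 0.69 in the higher (edgeR adjusted p = 0.007) and 0.46 with GC content added (edgeR adjusted p = 4.55e-05).

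Mylk, Notch3 and Cspg4 differ little in length. The 3 transcripts have between 7809 and 8050 bp and were shifted by -0.50 to -0.52, and as fitted they stood at -0.67, -0.59 and 0.17. Cspg4 and Notch3 also had nearly the same GC content (59.2% and 59.6%). The part of length and GC content in these differences was not tested. Within the pericyte genes, Rgs5 and Cspg4 took opposite sides in both fits. Rgs5 (1809 bp, 41.1% GC) is unlike Cspg4 in both properties. As fitted only Rgs5 was called, and length-corrected Rgs5 was called lower and Cspg4 higher. Both were also called so length- and GC-corrected (-0.38 and 0.46), and without length correction when library size was a covariate (-0.45 and 0.28).

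To compare levels between genes, CPM was divided by exonic length in kilobases (FPKM). In control hearts the order was Rgs5 (117.4 FPKM), Myl9 (86.48), Acta2 (84.62), Tagln (56.37), Pdgfrb (45.88), Myh11 (29.3), Notch3 (21.6), Mylk (12.0), Cspg4 (11.79) and Cnn1 (8.519 FPKM). Neighbors that could not be ordered were Myl9 and Acta2, with Myl9 the higher in 6 of 10 control mice, and Mylk and Cspg4, with Mylk the higher in 4 of 10. Cspg4 was above Cnn1 in 9 of 10 control mice, and every other neighbor kept its order in all 10. In IDA hearts Myl9 (123.3 FPKM) had passed Rgs5 (86.4 FPKM), which was the higher in 10 of 10 control mice but 1 of 10 IDA mice. FPKM removes neither the length trend nor GC content, in which Myl9 (1083 bp, 56.6% GC) and Rgs5 (1809 bp, 41.1% GC) differ. The part of these in the change of order was not tested. Mylk (7.555 FPKM) was below Cspg4 (13.25 FPKM) in all 10 IDA mice. As both members of the pair Mylk and Cspg4 are long, length differed little between them.

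Duplicate read pairs had been removed before counting, which limits how many pairs a short, abundant transcript can keep. The densest of the 10 genes reached 1.27 (Myl9), 1.01 (Rgs5) and 0.812 (Acta2) read pairs per exonic base in the highest mouse. For comparison, cardiac actin Actc1, at up to 1.85 pairs per base, kept 2490 to 2575 read pairs in every one of the 20 mice whatever the depth of the library. The part of duplicate removal in the levels of Myl9, Rgs5 and Acta2 was not tested.

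The members also varied together from mouse to mouse, apart from diet. Control mouse 3 had the highest CPM of its group for all 6 contractile genes and for Rgs5, and control mouse 7 for the other 3 pericyte genes. For each pair of the 10 genes, deviations from the mean of the own diet were correlated over the 20 mice in length-corrected log2 CPM, with p-values from 100000 permutations of mice within diet and Benjamini-Hochberg adjustment over the 45 pairs. Of these, 10 pairs had an adjusted p below 0.05. The 15 pairs among the contractile genes had r between 0.33 and 0.89 (median 0.64), and the 24 pairs of a contractile with a pericyte gene had r between -0.34 and 0.46 (median 0.08). This split was less clear in values not corrected for length. There the contractile pairs had r from 0.03 (Myl9 with Mylk) to 0.84 (Tagln with Cnn1). The contractile with pericyte pairs had r from -0.51 (Acta2 with Cspg4) to 0.74 (Mylk with Notch3, permutation, adjusted p = 0.0049). These genes share the libraries, the slice of tissue and the scaling of each mouse.

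Tagln and Cnn1 were the closest pair, with r = 0.89 (n = 20, permutation p = 1e-05, the smallest that these permutations can give, adjusted p = 0.00022) and rho = 0.78 (permutation p = 0.00013, adjusted p = 0.0015). Leaving out the 2 mice most distant from the median of Tagln gave r = 0.85, and r was 0.88 in control and 0.90 in IDA mice, and 0.92 in each run of library numbers. Acta2 followed the others less closely. Its r with Tagln was 0.48 (permutation p = 0.032, adjusted p = 0.12) with rho = 0.33 (permutation p = 0.14, adjusted p = 0.34). Leaving out the 2 mice most distant from the median of Acta2, which also narrows its range, gave r = 0.22. The value was 0.79 in control and 0.15 in IDA mice, and 0.24 in the lower and 0.79 in the higher run of library numbers.

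Among the pericyte genes Pdgfrb and Cspg4 varied together, with r = 0.67 (n = 20, permutation p = 0.0023, adjusted p = 0.011) and rho = 0.65 (permutation p = 0.0036, adjusted p = 0.02). Leaving out the 2 mice most distant from the median of Pdgfrb gave r = 0.52, and it was 0.77 in the lower and 0.90 in the higher run of library numbers. Rgs5 and Cspg4 varied in opposite directions, with r = -0.71 (permutation p = 0.0012, adjusted p = 0.0078) and rho = -0.80 (permutation p = 0.00011, adjusted p = 0.0015), r = -0.74 without the 2 outlying mice, -0.87 in control and -0.69 in IDA mice, and -0.67 and -0.88 in the lower and higher run. In values that were not corrected for length these last 2 relations were weaker, at r = 0.48 (permutation, adjusted p = 0.11) and r = -0.29 (permutation, adjusted p = 0.44). No correlation was run on values corrected for GC content, in which Rgs5 (41.1%) and Cspg4 (59.2%) differ. The part of GC content in these relations was not tested.

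**Figure D4:**
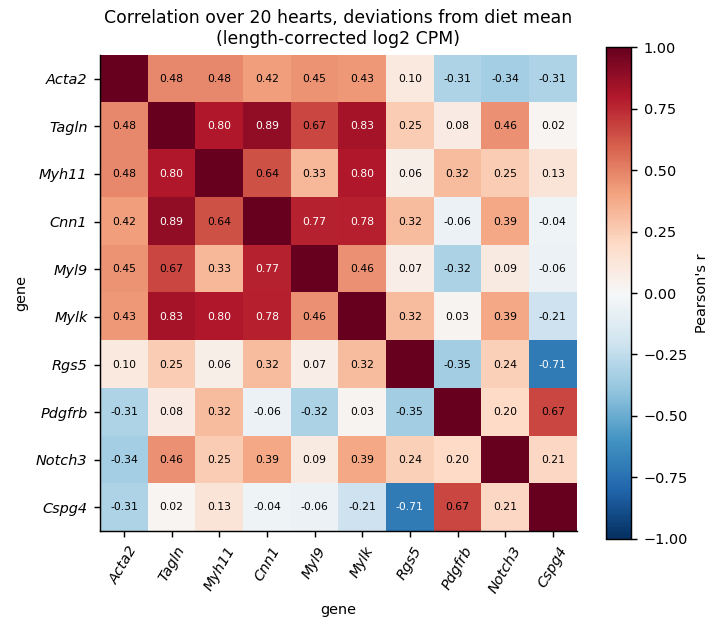
Pearson's r between each pair of the 10 genes over 20 hearts, after subtracting the mean of the diet from each mouse's length-corrected log2 CPM (red positive, blue negative, both axes list the genes). The block of contractile genes at the upper left has r of 0.33 to 0.89, and Rgs5 with Cspg4 is the most negative pair at -0.71.

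Other genes of the same cells gave both directions. The counts in this and the following lists, with the cell type markers, stand beside the shares of all tested genes. These were 30.6% higher and 29.2% lower as fitted, and 27.0% higher and 20.3% lower length-corrected. Of 23 further contractile and cytoskeletal genes of smooth muscle, 6 were higher and 6 lower as fitted (median log2 fold change 0.10, where the median of all genes was 0.02), and 7 were higher and 6 lower length-corrected (median 0.11, all genes 0.04), or 5 and 4 with GC content added. Among the highest besides Cnn2 was Pdlim7, a scaffold that binds actin filaments, which rose from 88.28 to 123.3 CPM (0.48, edgeR adjusted p = 3.04e-07, length-corrected 0.53). Ppp1r12a, the targeting subunit of the myosin phosphatase that reverses the work of Mylk, fell from 77.83 ± 16.46 to 35.52 ± 8.731 CPM (SD, n = 10 each) with no overlap between the diets, a log2 fold change of -1.13 (SE 0.14, edgeR adjusted p = 5.01e-07) that remained at -1.03 when length-corrected. Synpo2, an actin-bundling protein, fell by 0.81 on the log2 scale (edgeR adjusted p = 4.73e-07), and its length-corrected value was -0.36. These 2 genes are expressed in cardiomyocytes as well as in smooth muscle.

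Of 18 other pericyte and mural cell genes, 8 were higher and 5 lower as fitted (median 0.00), and 7 were higher and 7 lower length-corrected (median 0.08), or 5 and 2 with GC content added. The higher ones included 3 short transcripts of the mitochondrion, each with no overlap between the diets: Ndufa4l2, a hypoxia-inducible relative of a complex IV subunit (0.60, edgeR adjusted p = 1.65e-07, length-corrected 0.30, length- and GC-corrected 0.07 and not called), Cox4i2, the hypoxia-inducible form of subunit 4 (21.97 to 36.41 CPM, 0.73, edgeR adjusted p = 2.92e-07, length-corrected 0.39), and Higd1b (0.73, edgeR adjusted p = 3.15e-07, length-corrected 0.39), which was picked after its value was seen. How common such a lack of overlap is among all tested genes was not counted. Exons of Ndufa4l2 share 34 bp with Shmt2. The lower ones included Tbx18, a transcription factor of mural cells (-0.81, edgeR adjusted p = 2.26e-06, length-corrected -0.55), and Steap4, a metalloreductase (125.0 to 88.1 CPM, -0.50, edgeR adjusted p = 4.13e-06, length-corrected -0.44). The 2 subunits of the vascular ATP-sensitive potassium channel of pericytes, singled out after their values were seen, went separate ways as fitted and length-corrected: the pore Kcnj8 was higher (0.35, edgeR adjusted p = 5.58e-07, length-corrected 0.26) and the sulfonylurea receptor Abcc9 lower (-0.72, edgeR adjusted p = 6.98e-06, length-corrected -0.24), although with GC content added the value of Abcc9 was -0.14 and not called while Kcnj8 kept its call (0.17).

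**Figure D5:**
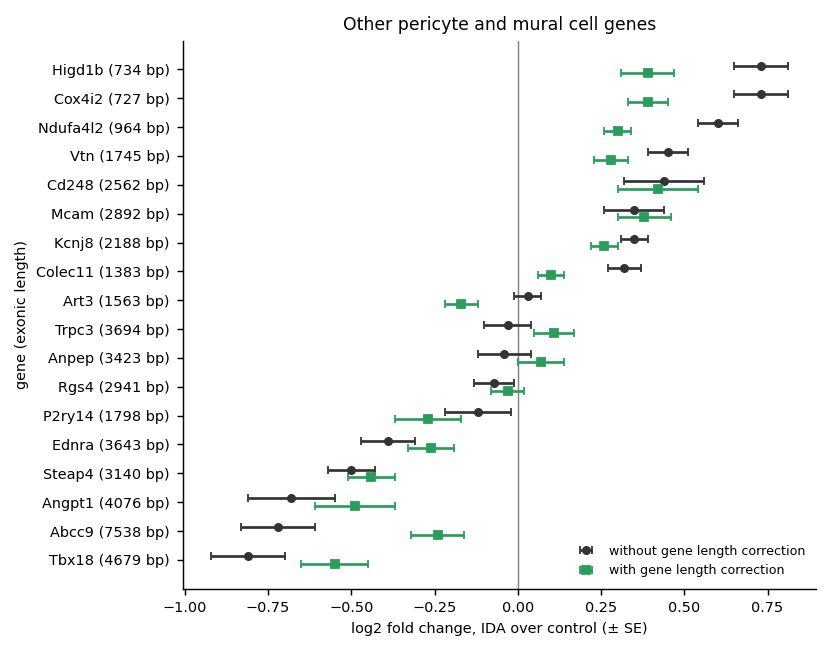
Log2 fold change of IDA over control (horizontal axis) of 18 other pericyte and mural cell genes, as fitted (black circles) and corrected for gene length (green squares), with bars of ± 1 SE and the exonic length beside each name. The genes run from 0.73 (Higd1b and Cox4i2) to -0.81 (Tbx18) as fitted.

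The regulators of the contractile program were tested in a list of 18 genes, of which 3 were higher and 11 lower as fitted (median -0.30), and 3 were higher and 6 lower length-corrected (median -0.11). With GC content added, the 3 calls that were higher as fitted were lost and 7 genes were lower. Mkl1 and Mkl2 had no GC value and were left out of that fit. Of these, Mkl2 had been called lower as fitted (-0.69). Srf, the serum response factor itself, rose from 255.7 ± 17.18 to 300.9 ± 10.17 CPM (SD, n = 10 each) without overlap (0.24, edgeR adjusted p = 9.24e-06, length-corrected 0.43); its transcript is 64.4% GC, and length- and GC-corrected the value was 0.11 and not called (edgeR adjusted p = 0.0655). Its partner myocardin, Myocd, named after its value was seen, fell from 154.9 to 94.92 CPM (-0.71, edgeR adjusted p = 1.95e-06, length-corrected -0.40). Elk4, a ternary complex factor that binds together with serum response factor, fell from 32.27 to 11.22 CPM (-1.53, edgeR adjusted p = 5.01e-07, length-corrected -1.39), and Tead1, which acts on the same genes, fell by 0.89 on the log2 scale (edgeR adjusted p = 3.44e-07, length-corrected -0.29). Tgfb1, a growth factor that favors the contractile state, was higher as fitted and length-corrected (0.47, edgeR adjusted p = 4.31e-06, length-corrected 0.37) and not called with GC content added (0.09, edgeR adjusted p = 0.277). Myocd (-0.39), Elk4 (-1.33) and Tead1 (-0.19) kept their calls in that fit. Myocd, Srf and Tead1 are also active in cardiomyocytes.

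Of 26 receptors and enzymes of vascular tone, 5 were higher and 14 lower as fitted (median -0.30), and 6 were higher and 7 lower length-corrected (median 0.02), or 5 and 6 with GC content added. Gucy1a3 (-0.45) and Gucy1b3 (-0.49), both called lower as fitted, had no GC value and were left out of that last fit. The receptors P2rx1 (1.634 to 9.912 CPM, 2.62, edgeR adjusted p = 5.4e-06, length-corrected 2.58) and Tbxa2r (8.361 to 14.09 CPM, 0.74, edgeR adjusted p = 0.000418, length-corrected 0.61), for ATP and thromboxane, were higher, but Tbxa2r was not called with GC content added (0.32). Both are carried by platelets as well as by smooth muscle. Prkg1, the cyclic GMP-dependent kinase that relaxes smooth muscle, fell from 44.46 to 22.61 CPM with no overlap (-0.98, edgeR adjusted p = 1.71e-07, length-corrected -0.50). Arhgef12, an activator of RhoA, was lower as fitted (-0.63, edgeR adjusted p = 3.61e-07) and had a length-corrected value of 0.00.

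The partners of Pdgfrb were 5 genes, of which 1 was higher and 2 were lower as fitted (median -0.21) and length-corrected (median -0.10), and the 2 lower calls held with GC content added. Pdgfb, the ligand that endothelium releases to hold pericytes, rose from 99.84 to 122.0 CPM (0.29, edgeR adjusted p = 1.53e-05, length-corrected 0.33), and was the gene whose higher call was lost with GC content added (0.09, edgeR adjusted p = 0.178). Pdgfd, a further ligand of that receptor, was lower (-0.48, edgeR adjusted p = 0.00149, length-corrected -0.64), as was the alpha receptor Pdgfra of fibroblasts (-0.71, edgeR adjusted p = 2.51e-07, length-corrected -0.28).

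Of 13 Notch ligands, receptors and targets besides Notch3, 1 was higher and 6 lower as fitted (median -0.19), and 4 were higher and 2 lower length-corrected (median 0.10), or 3 and 3 with GC content added. The target Hey1 was higher in both fits (0.48, edgeR adjusted p = 0.00012, length-corrected 0.40) and the ligand Jag1 lower in both (-0.56, edgeR adjusted p = 1.83e-05, length-corrected -0.22); with GC content added Hey1 was still called (0.33) and Jag1 was not (-0.18). The receptors shared the dependence of Notch3 on length, since Notch2 was lower as fitted (-0.54) but not called length-corrected (0.10), and Notch1 was called in opposite directions, at -0.32 (edgeR adjusted p = 0.00108) and 0.27 (edgeR adjusted p = 0.000809), and not called with GC content added (0.08). Of 11 other RGS genes, 5 were higher and 2 lower as fitted (median 0.12), and 5 were higher and 1 lower length-corrected (median 0.28), or 4 and 1 with GC content added. The 2 lower calls held together in 29 of the 100 fits without 1 mouse of each diet and 1 was made in the others, as also with upper-quartile or total scaling, the filter at 5 CPM or the replicate block. Rgs14 (0.75, edgeR adjusted p = 0.00163, length-corrected 0.69, length- and GC-corrected 0.50 and not called) and Rgs10 (0.59, edgeR adjusted p = 6.52e-05, length-corrected 0.28 and not called) were higher, and Rgs7 (-0.62, edgeR adjusted p = 0.000828, length-corrected -0.65) and Rgs17 (-0.59, edgeR adjusted p = 0.0159, length-corrected -0.05 and not called) were lower.

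The genes most like the contractile members were found by correlating length-corrected log2 CPM, over the 20 mice, with the mean of Acta2, Tagln, Myh11 and Cnn1. They were Itga8 (r = 0.87), an integrin of smooth muscle and mesenchymal cells, its ligand nephronectin, Npnt (0.86), Susd5 (0.84), the antisense neighbor E030013I19Rik of Itga8 (0.83), with which it shares 13 bp of exon, and the matricellular Nov (0.83). The same 5 led without length correction. Itga8 fell from 35.18 ± 12.96 to 17.56 ± 6.935 CPM (SD, n = 10 each; log2 fold change -1.0, SE 0.21, edgeR adjusted p = 0.000215, length-corrected -0.65), Npnt from 10.26 to 4.957 CPM (-1.03, edgeR adjusted p = 0.00452, length-corrected -0.89) and Susd5 from 8.979 to 4.147 CPM (-1.10, edgeR adjusted p = 7.2e-05, length-corrected -0.94). With GC content added Itga8 was not called (-0.50, edgeR adjusted p = 0.0328). For Itga8, Npnt and Susd5 the lowest IDA mouse was mouse 4 and the highest control mouse was mouse 3. These mice were also lowest for Acta2, Myh11 and Mylk and highest for all contractile members. As these genes were selected by correlation over the same mice, shared extreme mice follow from the selection and are no separate result.

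The genes most like the mean of the 4 pericyte members were Aoc3 (r = 0.83), an amine oxidase of smooth muscle, Ptprb (0.79) and Ehd3 (0.79), both known from endothelium, Diap1 (0.77) and Fgfr3 (0.77). Of these 5, 2 were also among the first 5 without length correction. Ptprb (-0.61, edgeR adjusted p = 4.07e-06; length- and GC-corrected 0.14 and called higher) and Diap1 (-0.29, edgeR adjusted p = 0.000419) were lower as fitted and not called length-corrected, and Fgfr3 was higher only length-corrected (0.52, edgeR adjusted p = 0.000168). IDA mouse 5 was the highest of its diet for all 5, as it was for Notch3, but here too the genes were selected by correlation over the same mice.

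Markers of the other cell types in the tissue were measured beside these genes. Those of cardiomyocytes include Actc1, whose read pairs hardly varied with library depth. The summed CPM of 10 cardiomyocyte markers was 6847 to 10110 in control and 5721 to 8722 in IDA hearts, with 0 higher and 2 lower, and 4 higher and 4 lower length-corrected; Ttn and Ryr2 were lower as fitted (-0.79 and -0.51) and higher length-corrected (0.57 and 0.28). Of 10 endothelial markers (summed CPM 2026 to 2229 and 2024 to 2487), 5 were higher and 3 lower, and length-corrected 6 were higher and 0 lower. Of 10 fibroblast markers (2227 to 2664 and 2252 to 2773), 3 were higher and 1 lower, and length-corrected 4 and 2. Of 6 leukocyte markers (383.8 to 454.9 and 410.4 to 504.4), 4 were higher and 1 lower, and length-corrected 2 and 0. Erythroid markers moved most, with summed CPM of 109.4 to 169.6 in control and 163.3 to 608.7 in IDA hearts, 3 of 4 higher and 1 lower (3 and 0 length-corrected), and Slc4a1, the anion exchanger of red cells, at 2.743 and 45.16 CPM. Hba-a1 and Hba-a2 are listed at 0, as their exons overlap each other almost entirely.

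Among 4 markers each of adipocytes, mesothelium and atria, 1 was higher and 0 lower, with summed CPM of 106.4 to 155.5, 12.38 to 57.68 and 212.0 to 459.2 in control and 126.5 to 146.5, 8.596 to 96.68 and 236.8 to 530.4 in IDA hearts. Length-corrected, 0 adipocyte markers were higher and 1 was lower, Fabp4, which had been the higher one as fitted (0.16 and -0.19), 1 mesothelial marker was higher, and 0 atrial markers were called. With GC content added Fabp4 was not called (0.04, edgeR adjusted p = 0.532). Of 5 matrix genes of large arteries, 2 were higher and 0 lower in either fit, as fitted elastin (Eln, 0.27, edgeR adjusted p = 0.00679, length-corrected 0.43, length- and GC-corrected 0.21 and not called) and Mfap4 (0.37, edgeR adjusted p = 0.0139, length-corrected 0.17 and not called), with summed CPM of 548.7 to 722.4 in control and 580.7 to 795.3 in IDA hearts. The summed CPM of the 6 contractile members was 641.2 to 895.1 in control and 594.4 to 812.5 in IDA hearts, and that of the 4 pericyte members 669.3 to 820.5 and 516.0 to 721.7. The part of blood, of vessels cut with the heart and of the make-up of the tissue in the differences of the 10 genes was not tested.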

How the data were processed

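Poly-(A)-selected RNA from 20 mouse hearts was sequenced as read pairs. Per the file header and the methods of the study, the authors used STAR and the mm10 genome for alignment, discarded PCR duplicates, and made exon counts of read pairs with featureCounts 1.4.5-p1 without using strand. The deposited counts were used as given, and total 6682177 to 8960688 read pairs per mouse. Exonic lengths in bp and gene positions are those of the same file. No column of another series was used.

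The 13590 of 23420 genes that reached 1 CPM in 10 or more mice were fitted with diet as the only term in edgeR 4.0.16 (TMM scaling, quasi-likelihood test) and DESeq2 1.42.0 (Wald test) in R 4.3.3; a call needed p below 0.01 in both. The study left out 1 mouse of each diet without naming it, so all 20 were kept and 100 fits each left out a pair. For log2 CPM a prior count of 2 was added. In the length-corrected fit, a loess curve (span 0.5, degree 1) of each mouse's deviation from the gene mean on log2 exonic length was entered as an offset; GC content could be added for 94% of tested genes. As alternatives, other scalings (DESeq2 factors, upper quartile, total), filters (none, 5 CPM), tests (edgeR, DESeq2 or limma-voom 3.58.1 alone at an adjusted p below 0.05), library size as a covariate and the replicate number as a block were tried. The runs of library numbers were added as an alternative after the data were seen. No pair of libraries was a duplicate: the mean chi-square per gene between libraries of a diet was at least 2.17 in control and 1.51 in IDA mice. The fits were tested on simulated data.

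The 10 genes and the lists of other genes were chosen with earlier results of these data known. Named besides the 10 were, per list, at most 2 higher and 2 lower called genes with the lowest p, genes called in opposite directions by the fits, close relatives of the members, and the 5 genes most like the contractile and the pericyte mean.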

Additional observations from a re-analysis of the deposited data

Results flagged for a closer look

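In the 20 sets of 10 mice (10 genes, 2 diets), 2 single mice stood far enough from the others of their diet to pass Dixon's test at 95%, where chance would give about 1 in 20. IDA mouse 1 had 97.92 CPM of Rgs5, while the next lowest IDA mouse had 146.1 CPM, a gap of 0.47 of the range of the diet; without it Rgs5 was still called lower, at -0.42 to -0.37 on the log2 scale. IDA mouse 4 had 140.8 CPM of Cspg4, while the next highest had 113.2 CPM, a gap of 0.50 of the range; without it the log2 fold change of Cspg4 as fitted was 0.09 to 0.14 and was not called.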

How the results depend on the processing

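The length correction changed the call of 5 of the 10 genes. With the length correction 4 of the 10 genes were called higher and 1 lower, as also with the replicate block and the length correction together and in the lower run of library numbers with the length correction; in the higher run with it, 1 was lower. With length and GC content corrected it was 3 higher and 3 lower. Among fits without a length correction, limma-voom called 4 higher, edgeR alone 3 and the higher run of library numbers 1; the run as a covariate called 5 lower, and upper-quartile or total scaling, library size as a covariate and the lower run 3 lower. The remaining ones gave 2 higher and 4 lower. Fold changes that turned were those of Tagln (-0.03 with the length correction, -0.10 with length and GC content, -0.04 with the block and length, -0.11 in the higher run with length), Myh11 (0.11, 0.02, 0.11 with the block and length, 0.23 in the lower run with length), Cnn1 (-0.03 with length and GC content, 0.00 with the block and length) and Pdgfrb (0.27, 0.14, 0.27 with the block and length, 0.26 and 0.22 in the lower and higher run with length). Over the 100 fits without 1 mouse of each diet, 1 to 3 of the 10 genes were higher and 3 to 4 lower, and Cnn1 lay between -0.03 and 0.29. Across all genes 3973 were lower as fitted and 2178 with length and GC content corrected, or 2314 with the block and length. Mice that share a replicate number did not deviate together (r of -0.28 to 0.26, over 0.1 in 3 of 10 pairs, and 4 of 20 mice correlated best with their own number), and the fit with the replicate block called 2 of the 10 genes higher and 4 lower, as without it. The cause of the other shifts was not tested. Cnn1, with as few as 80 read pairs, is the gene whose precision depth limits most.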
